A study of Mus musculus with 6 samples.

Results

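The genes described here are 7 members of the IL-1 and IL-18 receptor family and its shared signalling pair, chosen by name from the 23420 rows of the expression table. They are 5 receptor genes (Il1r2, Il1r1, Il1rl1, Il18r1 and Il18rap), the adaptor Myd88 and the kinase Irak4. Expression was measured by RNA-seq of polyadenylated RNA in 6 libraries of mouse induced T (iT) cells, 3 of CD4 single-positive (CD4SP) and 3 of CD8 single-positive (CD8SP) cells, each made from 1000 sorted spleen cells. Both populations were of donor origin and grew from pluripotent stem cells with a doxycycline-inducible Runx1-p2a-Hoxa9 cassette at the Rosa26 locus (iR9 cells, C57BL/6 background for the embryonic stem cell lines, CD45.2), which were turned into blood progenitors in culture with doxycycline. These progenitors were transplanted into sublethally irradiated B-NDG mice, a CD45.1+ NOD strain with the Prkdc scid mutation and a disrupted Il2rg gene, which were 8 to 10 weeks old at transplantation. Splenic iT cells were taken 5 weeks later and gated on CD45.2, on the absence of other lineage markers (among them Ter119 and CD11b), and on CD4 or CD8. The cassette was therefore carried by every library, and all T cells came from hygromycin-selected clones in hosts that lack lymphocytes of their own. No library of T cells from an unmanipulated mouse was compared here. The study describes each library as a biological replicate, but the labels do not say whether the libraries came from separate mice, so p-values measure the spread between these samples only.

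Receptors of this family carry immunoglobulin-like domains outside the cell and, in the signalling members, a TIR domain inside it. Ligand binding pairs a ligand-specific chain with an accessory chain, their TIR domains recruit MYD88, and MYD88 gathers IRAK kinases, IRAK4 first, to activate NF-kB and MAP kinases. In T cells IL-18 acts with IL-12 to promote interferon-gamma, ST2 (the product of Il1rl1) is the IL-33 receptor of type 2 helper cells and tissue regulatory T cells, and IL1R2 is a decoy that binds IL-1 but has no TIR domain.

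The 5 receptor genes lie in 1 cluster on the plus strand of chromosome 1 (positions on GRCm38, GENCODE M21). Il1r2 lies at chr1:40074079-40125231, Il1r1 at chr1:40225080-40317257, Il1rl1 at chr1:40429570-40465415, Il18r1 at chr1:40465552-40500854 and Il18rap at chr1:40515362-40551705. Myd88 lies at chr9:119335934-119341411 on the minus strand, and Irak4 at chr15:94543643-94581815 on the plus strand. All 7 are annotated as protein coding. Promoter windows of 300 bases, from 250 before to 50 after an annotated start, were held for all 7 members by RefSeq on GRCm38.p6, 11 windows in all. The windows of Il1rl1 and Il1r2 are printed because these genes differed most between the populations. Capitals mark matches to the searched letters, a GATA motif spelled AGATAA in Il1rl1, found on the other strand in its second window, and a STAT motif spelled TTCNNNGAA in Il1r2. The windows lie on the plus strand at chr1:40429320-40429619 and chr1:40439379-40439678 for Il1rl1 and at chr1:40085843-40086142 for Il1r2, the last 2 of them inside the gene spans given above.
Il1rl1, first start: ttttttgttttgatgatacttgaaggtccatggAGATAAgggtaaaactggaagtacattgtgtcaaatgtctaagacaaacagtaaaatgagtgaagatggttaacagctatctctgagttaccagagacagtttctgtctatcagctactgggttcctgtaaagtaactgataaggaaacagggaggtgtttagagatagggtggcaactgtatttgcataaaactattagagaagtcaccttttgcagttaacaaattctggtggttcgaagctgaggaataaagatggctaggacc
Il1rl1, second start: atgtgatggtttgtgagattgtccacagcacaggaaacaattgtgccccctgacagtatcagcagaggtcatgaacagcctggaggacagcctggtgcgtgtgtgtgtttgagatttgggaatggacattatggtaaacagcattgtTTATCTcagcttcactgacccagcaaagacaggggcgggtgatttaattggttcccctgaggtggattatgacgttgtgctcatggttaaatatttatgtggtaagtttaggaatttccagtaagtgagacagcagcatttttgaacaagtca
Il1r2: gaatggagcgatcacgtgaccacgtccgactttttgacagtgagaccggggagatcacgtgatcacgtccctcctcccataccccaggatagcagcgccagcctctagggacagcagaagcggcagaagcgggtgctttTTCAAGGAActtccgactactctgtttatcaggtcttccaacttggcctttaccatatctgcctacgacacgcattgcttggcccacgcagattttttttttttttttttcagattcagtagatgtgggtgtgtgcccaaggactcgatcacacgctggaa
Of 32851 windows of the same length, 11.18% held AGATAA and 8.298% held TTCNNNGAA on either strand. Among the other members, the Myd88 window held 1 STAT match and 1 T-box match (AGGTGTGA, in 1.275% of windows), and the Il18rap window held 1 RUNX match (TGTGGTT, in 5.269%). The 3 windows of Il18r1 held none, 1 RUNX match and 2 STAT matches, and the windows of Il1r1 and Irak4 held no match. TGANTCA (AP-1, in 7.808% of windows) and GGGNNTTTC (NF-kB, in 4.359%) were in none of the 11 member windows. A match is a run of letters and not evidence of binding.

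The libraries are described by TPM, a unit of transcript abundance corrected for gene length and for the library's total, so levels can be compared between genes. TPM keeps no sequencing depth, and a value of 0 is given as listed at 0. The number of genes at 1 TPM or more was 10329 to 10649 in CD4SP and 9971 to 10149 in CD8SP libraries. Ribosomal protein genes (82 genes) took 24.1% to 28.7% of TPM in CD4SP and 32.5%, 32.1% and 35.9% in CD8SP replicates 1 to 3. The median log2 fold change of all 10476 genes tested was 0.284 towards CD4SP (0.145 with the ribosomal protein genes removed), and the members are read against it. Summed CD4 markers (Cd4, Zbtb7b, Cd40lg) were at 358.9 to 409.7 TPM in CD4SP and 2.10 to 3.29 in CD8SP libraries, and summed CD8 markers (Cd8a, Cd8b1) at 24.9 to 38.9 and 3236 to 3562 TPM. CD4SP replicate 2 stood apart from the other CD4SP libraries in Foxp3, the regulatory T cell transcription factor, at 6.56 TPM against 141.6 and 167.2. Values without this library are given beside some of the results that it moves. A lower share of cells that express a gene and less RNA of it per cell cannot be told apart in these bulk samples.

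The log2 fold change (log2FC, CD4SP against CD8SP) was tested with limma on log2(TPM + 1), with p-values adjusted over all tested genes, and a gene was called at an adjusted p under 0.05 and a difference over 2-fold. Of all tested genes 9.73% were called, and 7.92% were called as higher in CD4SP. All 7 members were tested, and 2 of them, the decoy receptor gene Il1r2 and the ST2 gene Il1rl1, were called, both higher in CD4SP. The other 5 were not called. In 5 of 7 members (Il1r2, Il1rl1, Il1r1, Il18r1 and Irak4) the 3 CD4SP libraries lay above the 3 CD8SP libraries, an arrangement seen in 36.6% of all tested genes. The exact two-sided permutation p of each of these 5 was 0.1, the lowest that a comparison of 3 with 3 allows. The median log2FC of the members was 0.61, beside 0.28 over all genes.

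**Figure D1:**
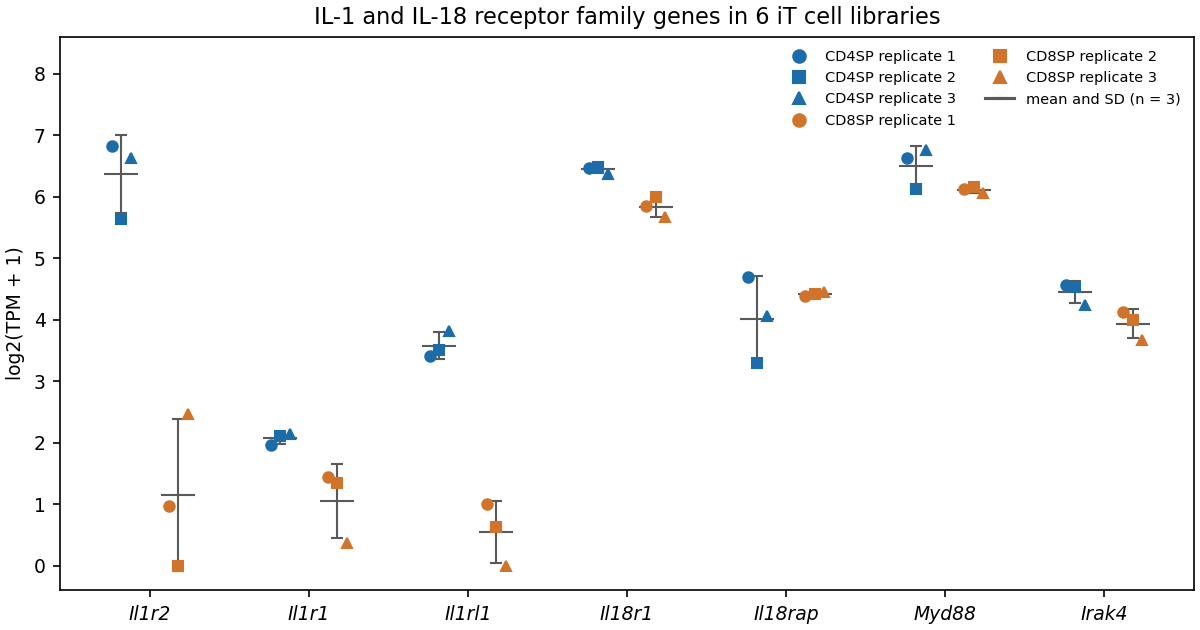
Levels of the 7 member genes as log2(TPM + 1) on the vertical axis, one point per library, with CD4SP in blue and CD8SP in orange, a horizontal mark for the mean and bars for the SD of the log2 values (n = 3). Il1r2 and Il1rl1 separate the populations widely, while the CD4SP points of Il18rap and Myd88 fall on both sides of their CD8SP points or among them.

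Il1r2 encodes the decoy receptor, which takes up IL-1 without passing on a signal. CD4SP replicates 1, 2 and 3 had 112.1, 48.8 and 97.79 TPM. Of the CD8SP libraries, replicate 1 had 0.964 TPM, replicate 2 was listed at 0 and replicate 3 had 4.50 TPM. Every CD4SP library was above every CD8SP library, with replicate 2 the lowest of the CD4SP libraries. The log2FC was 5.22 (SE 0.576, 95% interval 3.90 to 6.53, adjusted p = 0.000712 by limma), the largest among the 7 members. Relative to the median of all genes it was higher by 4.93. Without CD4SP replicate 2 the log2FC was 5.58 (adjusted p = 0.00245 by limma). Leaving out a CD8SP library moved it more, to 5.88 without replicate 3 (adjusted p = 0.000533 by limma) and 4.65 without replicate 2 (adjusted p = 0.0007). In CD4SP cells this decoy gene was as abundant as the most abundant signalling members, and its range of 48.8 to 112.1 TPM overlapped that of Myd88.

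Il1rl1 encodes ST2, the chain that binds IL-33. The CD4SP libraries had 9.61, 10.35 and 13.15 TPM, a mean of 11.0 ± 1.87 (SD, n = 3). Of the CD8SP libraries, replicates 1 and 2 had 1.01 and 0.540 TPM, and replicate 3 was listed at 0. The populations did not overlap, and the lowest CD4SP level was well above the highest CD8SP level. The log2FC was 3.04 (SE 0.310, 95% interval 2.33 to 3.74, adjusted p = 0.00048 by limma), which is 2.75 above the median of all genes. Since the scale understates change at low values, a pseudocount of 0.1 gave 4.74 (adjusted p = 0.00774 by limma). Its level did not follow Foxp3 across the CD4SP libraries, since replicate 2, lowest in Foxp3, was between the other two in Il1rl1. The gene gives a membrane-bound and a soluble form of ST2, and TPM per gene does not separate them.

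Il1r1, the signalling receptor for IL-1, was low in both populations. It was at 2.91, 3.33 and 3.42 TPM in CD4SP (3.22 ± 0.270, SD, n = 3) and at 1.73, 1.54 and 0.287 TPM in CD8SP replicates 1 to 3 (1.18 ± 0.783, SD, n = 3). The ranges did not overlap, with CD8SP replicate 3 the lowest library. The log2FC was 1.02 (SE 0.337, 95% interval 0.25 to 1.80), and it did not pass the test (adjusted p = 0.0632 by limma). It was 0.68 without CD8SP replicate 3, 0.65 after quantile normalization and 1.66 with a pseudocount of 0.1, and passed in none of these. In CD4SP libraries the decoy gene Il1r2 was thus at a far higher TPM than the signalling receptor gene of the same ligand, whereas in CD8SP libraries the ranges of the pair overlapped.

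The IL-18 receptor has a ligand-binding and an accessory chain. Il18r1 encodes the ligand-binding chain and was at 87.81, 88.88 and 81.95 TPM in CD4SP (86.2 ± 3.73, SD, n = 3) and at 56.9, 62.4 and 49.71 TPM in CD8SP libraries (56.3 ± 6.36, SD, n = 3). It was high in both populations, and all CD4SP libraries were above all CD8SP libraries. The log2FC was 0.61 (SE 0.134, 95% interval 0.31 to 0.92, adjusted p = 0.0151 by limma), under the 2-fold limit. At an adjusted p under 0.05 with no fold limit, 17.6% of all genes were higher in CD4SP. The excess over the median of all genes was 0.33, and the adjusted p was 0.141 after median-of-ratios rescaling and 0.101 after quantile normalization, so this difference depends on how the libraries are scaled. Without CD8SP replicate 1 the adjusted p was 0.0642 (limma), with a log2FC of 0.62.

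Il18rap encodes the accessory chain, which is needed for high-affinity binding and signalling. It was at 24.9, 8.778 and 15.62 TPM in CD4SP (16.4 ± 8.09, SD, n = 3) and at 19.77, 20.38 and 20.77 TPM in CD8SP libraries (20.3 ± 0.507, SD, n = 3). CD8SP libraries were close together, while CD4SP libraries ranged from below to above them. It was the single member with a negative log2FC, -0.40 (SE 0.318, 95% interval -1.13 to 0.33, adjusted p = 0.388 by limma). Without CD4SP replicate 2, the lowest library, the log2FC was -0.04 (adjusted p = 0.897 by limma). Without CD4SP replicate 1, the highest library, it was -0.74 (adjusted p = 0.0952 by limma), and it was -0.69 after median-of-ratios rescaling and -0.73 after quantile normalization.

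The balance of the chains was compared within each library as the difference of log2(TPM + 1) between Il18r1 and Il18rap. It was 1.78, 3.20 and 2.32 in CD4SP and 1.48, 1.57 and 1.22 in CD8SP replicates 1 to 3. Each library had more Il18r1 than Il18rap, and the excess was larger in every CD4SP library. The means were 2.43 ± 0.718 and 1.42 ± 0.181 (SD, n = 3), a difference of 1.01 with an exact two-sided permutation p of 0.1, the smallest possible. CD4SP replicate 2 sets much of this size, since the difference was 0.626 without it. Leaving out CD8SP replicate 1, 2 or 3 gave differences of 1.04, 1.08 and 0.909, each with an exact permutation p of 0.2.

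**Figure D2:**
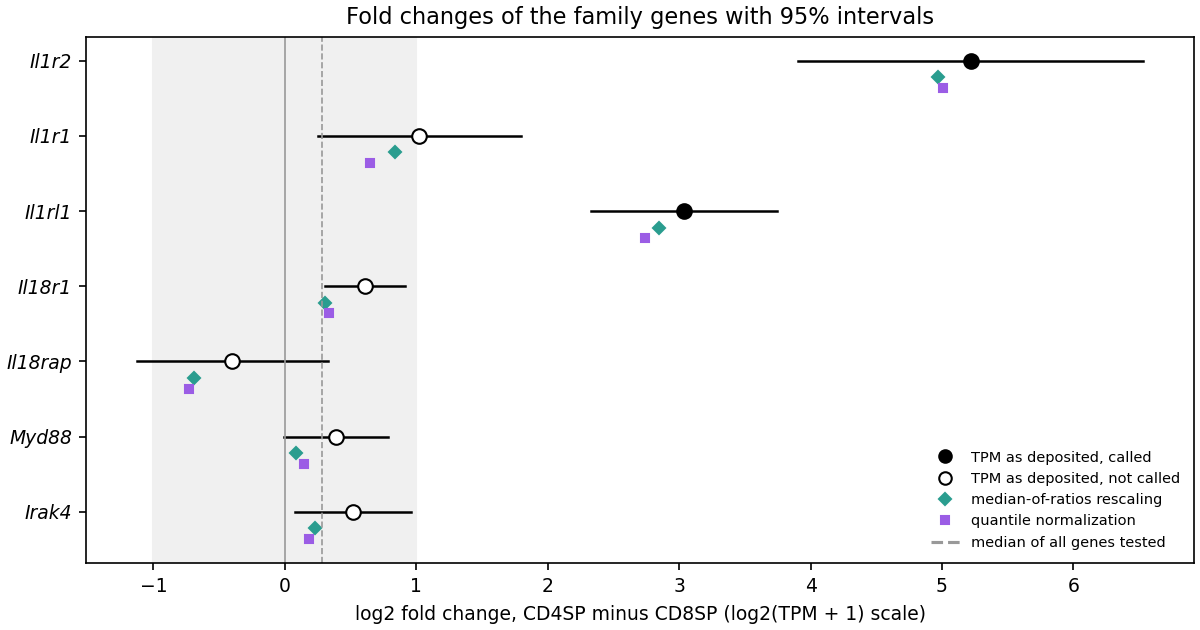
Log2FC of each member, CD4SP against CD8SP, on log2(TPM + 1) from limma with 95% intervals, filled where called, with the 2-fold range shaded, the median of all genes (0.284) dashed, and values after median-of-ratios rescaling (diamonds) and quantile normalization (squares). Il1r2 and Il1rl1 lie beyond 2-fold under each scaling, while the intervals of Il18rap and Myd88 include 0.

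Myd88, the adaptor that every signalling receptor of the family uses, was at 97.67, 69.09 and 106.7 TPM in CD4SP (91.2 ± 19.6, SD, n = 3) and at 69.12, 70.55 and 65.35 TPM in CD8SP libraries (68.3 ± 2.68, SD, n = 3). CD4SP replicate 2 lay among the CD8SP libraries and the other two lay above them. The log2FC was 0.39 (SE 0.173, 95% interval -0.01 to 0.78, adjusted p = 0.142 by limma), 0.10 above the median of all genes. Without CD4SP replicate 2 it was 0.57 with a limma adjusted p of 0.0115, and with library weights over all 6 libraries it was 0.485 with an adjusted p of 0.0126, both under 2-fold. Rescaling moved it the other way, to 0.08 (adjusted p = 0.685 by limma) by median-of-ratios and 0.15 (adjusted p = 0.494) by quantile normalization. Its longest transcript shares 224 nt at 100% identity with Acaa1a, an overlapping neighbour, so reads there could be counted for either gene.

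Irak4, the kinase that MYD88 recruits first, was at 22.76, 22.15 and 17.91 TPM in CD4SP (20.9 ± 2.64, SD, n = 3) and at 16.5, 14.87 and 11.72 TPM in CD8SP libraries (14.4 ± 2.43, SD, n = 3). The ranges did not overlap but came close, with CD4SP replicate 3 just above CD8SP replicate 1. The log2FC was 0.52 (SE 0.192, 95% interval 0.08 to 0.96, adjusted p = 0.0887 by limma), and it was not called. It was 0.23 (adjusted p = 0.442 by limma) after median-of-ratios rescaling and 0.19 (adjusted p = 0.565) after quantile normalization. Both shared signalling genes were thus present in every library, and neither was called between the populations.

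The order of the levels differed in the receptor genes. In CD4SP libraries, by median TPM, Il1r2 (97.79), Myd88 (97.67) and Il18r1 (87.81) came first, and neighbours among them overlapped. Irak4 (22.15), Il18rap (15.62) and Il1rl1 (10.35) followed, again with overlapping neighbours, and Il1r1 (3.33) was last and apart. In CD8SP libraries the order was Myd88 (69.12), Il18r1 (56.9), Il18rap (20.38) and Irak4 (14.87), with no overlap between neighbours. Il1r1 (1.54), Il1r2 (0.964) and Il1rl1 (0.540) came last, and their neighbouring ranges overlapped. The decoy gene was therefore first of 7 by median in CD4SP and among the last 3 in CD8SP cells.

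Whether the neighbours on chromosome 1 shared these levels was examined next. The span from the start of Il1r2 to the end of Il18rap covers 478 kb and holds 6 protein-coding genes, the 5 members and Il1rl2, the IL-36 receptor gene, which was listed at 0 in all 6 libraries. Along it, Il1r1, which was not called, lies between the called genes Il1r2 and Il1rl1, and Il18r1 and Il18rap, neither called, follow Il1rl1. Il1rl1 and Il18r1 are separated by 136 bases on the same strand, with log2FCs of 3.04 and 0.61, and the difference between them was not tested. Within 500 kb on either side, 2 other protein-coding genes passed the filter on low values. Rnf149, a ubiquitin ligase gene, was at 125.6 to 178.6 TPM in CD4SP and 70.85 to 73.43 TPM in CD8SP libraries (log2FC 1.05, adjusted p = 0.00227 by limma) and was called. Its log2FC lay close to the 2-fold limit, beside a median of 0.28 over all genes, and its values under other scalings are not given. Map4k4, a kinase gene, was at 17.21 to 19.23 TPM in CD4SP and 23.83 to 44.79 TPM in CD8SP libraries (log2FC -0.92, adjusted p = 0.0297 by limma), under 2-fold.

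**Figure D3:**
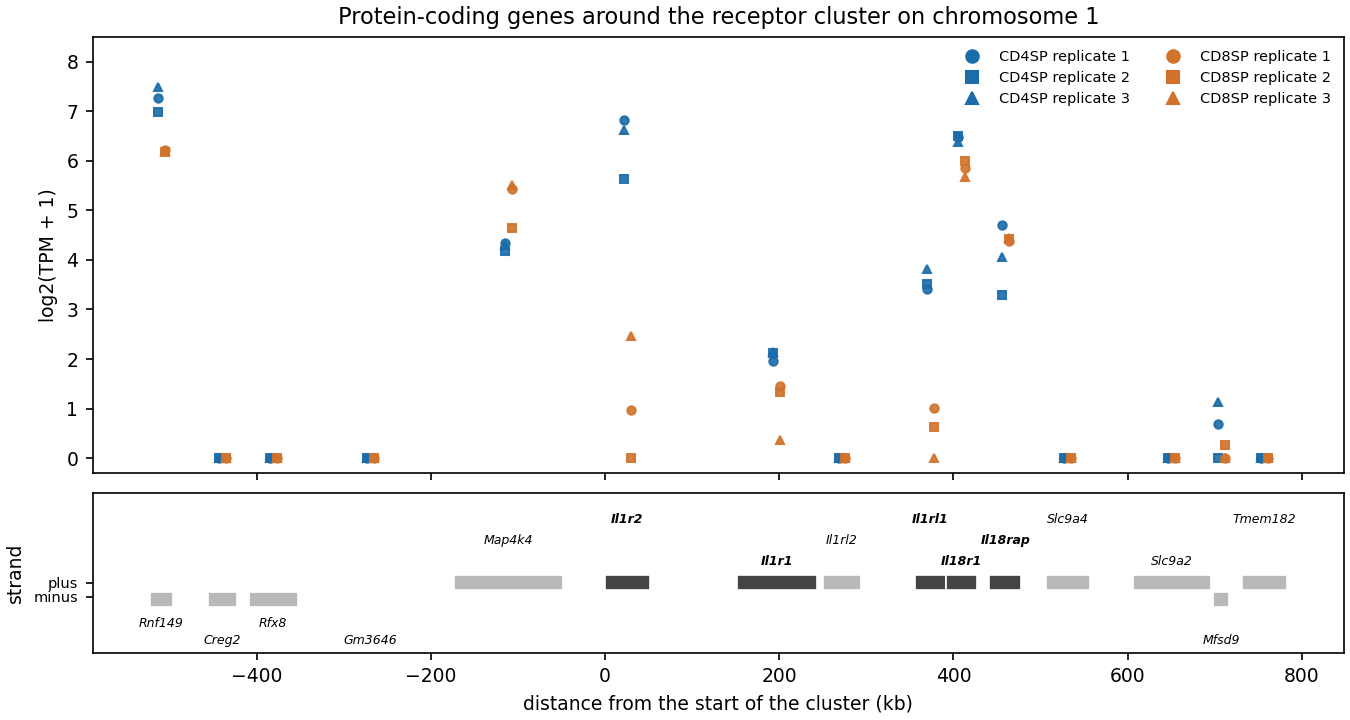
Protein-coding genes of the chromosome 1 region, with log2(TPM + 1) of each library at the middle of each gene in the upper panel and gene extents to scale by strand in the lower panel, against distance in kb from the start of the cluster (members dark). Il1r2 and Il1rl1 show wide gaps between CD4SP (blue) and CD8SP (orange) libraries, while Il18r1 shows a small gap and the libraries of Il18rap overlap.

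The other receptors and decoys of the family were low or did not pass the call. Of 7 listed genes 3 were tested and none was called, against 9.73% of all genes. Their median log2FC was 0.61, beside 0.28 over all genes. This median was 0.35 without CD8SP replicate 3, 0.31 after median-of-ratios rescaling and 0.37 after quantile normalization. Il1rap, the accessory chain that both IL-1 and IL-33 receptors need, was at 3.63 to 3.79 TPM in CD4SP and 2.11 to 3.38 TPM in CD8SP libraries (log2FC 0.31, adjusted p = 0.379 by limma). Its sign depended on the scaling, being 0.08 (adjusted p = 0.866 by limma) after median-of-ratios rescaling and -0.06 (adjusted p = 0.912) after quantile normalization. Il1rap was lower than Il1rl1 in every CD4SP library. Sigirr, an inhibitory member of the family, was at 122.2 to 125.7 TPM in CD4SP and 63.5 to 99.06 TPM in CD8SP libraries (log2FC 0.61, adjusted p = 0.0351 by limma), under 2-fold. This too depended on the scaling, with 0.31 (adjusted p = 0.22 by limma) after median-of-ratios rescaling and 0.37 (adjusted p = 0.132) after quantile normalization. Il18bp, the soluble IL-18 decoy, overlapped between the populations (log2FC 0.77, adjusted p = 0.234 by limma, and 1.04 with an adjusted p of 0.13 without CD4SP replicate 2). Il18bp was at 0.48 (adjusted p = 0.465 by limma) after median-of-ratios rescaling and 0.45 (adjusted p = 0.494) after quantile normalization. The lowest log2FC of Il18bp over the alternatives was 0.24. Il1rl2, Il1rapl1 and Il1rapl2 were listed at 0 in all 6 libraries.

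Ligand genes of the receptors were hardly found in these cells. Of 9 ligand genes in the table, 7 of them, including Il1a and Il1b, were listed at 0 in all 6 libraries. Il33 was at 1.39 TPM in CD4SP replicate 3 and listed at 0 elsewhere. Il18, the 1 ligand gene tested, was at 4.21 and 6.53 TPM in CD4SP replicates 1 and 3 and listed at 0 in replicate 2. The CD8SP libraries had 0.747, 0 and 2.78 TPM, so the ranges overlapped (log2FC 0.86, adjusted p = 0.443 by limma). The overlap rested on CD4SP replicate 2, without which the log2FC was 1.74 (adjusted p = 0.052 by limma). With library weights Il18 was called (1.76, adjusted p = 0.0351). Other settings lowered it, to 0.40 without CD8SP replicate 2, 0.65 after median-of-ratios rescaling (adjusted p = 0.625 by limma) and 0.59 after quantile normalization (adjusted p = 0.661).

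Among 20 signalling genes downstream of MYD88, 16 were tested and 1, the kinase gene Irak2, was called as higher in CD4SP, a share near the 7.92% of all tested genes. The median log2FC of the 16 was 0.30, beside 0.28 over all genes. Irak2 was at 4.43, 4.37 and 6.14 TPM in CD4SP and at 2.62, 2.13 and 1.26 TPM in CD8SP libraries, and these did not overlap. Its log2FC of 1.01 (adjusted p = 0.0344 by limma) sat at the 2-fold limit, and the call was lost in 12 of 15 alternatives, among them median-of-ratios rescaling (0.78, adjusted p = 0.0766 by limma) and quantile normalization (0.64, adjusted p = 0.133 by limma). Irak1, its partner kinase, was at 6.64 to 9.36 TPM in CD4SP and 6.47 to 7.85 TPM in CD8SP libraries (adjusted p = 0.769 by limma). Irak3, an inhibitory kinase of the family, was under 1 TPM in every library and was not tested. Traf6, the ubiquitin ligase gene that acts after the kinases, overlapped between the populations (log2FC 0.39, adjusted p = 0.307 by limma, and 0.62 with an adjusted p of 0.0587 without CD4SP replicate 2). Rescaling lowered Traf6 to 0.12 (adjusted p = 0.771 by limma) by median-of-ratios and 0.02 (adjusted p = 0.975) by quantile normalization.

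Toll-like receptors share MYD88 with this family. Of 16 genes of Toll-like receptors and TIR adaptors 6 were tested and none was called, beside 9.73% of all tested genes. The median log2FC of the 6 was 0.36, beside 0.28 over all genes. The median was 0.13 without CD4SP replicate 1 and 0.51 without CD4SP replicate 3, over the 5 genes still tested in each run. Over all 6 it was 0.14 after median-of-ratios rescaling and 0.06 after quantile normalization. Among 8 genes linked to the processing of IL-1 and IL-18, 5 were tested. Of these 1, Casp4, an inflammatory caspase gene, was called as higher in CD4SP, beside 7.92% of all tested genes. The median log2FC of the 5 was 0.57, beside 0.28 over all genes. This median was 0.28 after median-of-ratios rescaling and 0.25 after quantile normalization. Casp4 was at 109.4, 110.4 and 95.35 TPM in CD4SP and at 31.19, 34.83 and 32.41 TPM in CD8SP libraries (log2FC 1.65, adjusted p = 0.00013 by limma), and the call held under each of 16 alternatives. Casp1, which cleaves pro-IL-1 beta and pro-IL-18, was at 118.1 to 165.6 TPM in CD4SP and 62.98 to 84.33 TPM in CD8SP libraries (log2FC 0.96, adjusted p = 0.00735 by limma), just under 2-fold. Casp1 was called in 4 of 16 alternatives, among them without CD4SP replicate 2 (1.12, adjusted p = 0.00377 by limma), and was at 0.65 (adjusted p = 0.0264) after median-of-ratios rescaling.

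Genes of the IL-12 and IL-18 axis, which leads to interferon-gamma, were examined beside the IL-18 receptor. All 8 were tested, 1 was called as higher in CD8SP and none as higher in CD4SP, beside 9.73% of all tested genes called in either direction. The median log2FC of the 8 was -0.07, beside 0.28 over all genes, and its sign depended on the setting, being 0.08 without CD4SP replicate 2, -0.31 after median-of-ratios rescaling and -0.38 after quantile normalization. The called gene was Eomes, a T-box factor of cytotoxic cells, at 8.19 to 10.63 TPM in CD4SP and 49.89 to 55.39 TPM in CD8SP libraries (log2FC -2.37, adjusted p = 5.52e-05 by limma). Ifng itself was at 62.28 to 72.11 TPM in CD4SP and 78.23 to 83.45 TPM in CD8SP libraries, a non-overlapping difference that did not pass the test (log2FC -0.27, adjusted p = 0.144 by limma). After median-of-ratios rescaling the log2FC of Ifng was -0.57 (adjusted p = 0.0234 by limma) and after quantile normalization -0.53 (adjusted p = 0.0324 by limma), under 2-fold in each. Il12rb1, the IL-12 receptor chain shared with IL-23, was at 25.81 to 35.61 TPM in CD4SP and 14.54 to 21.26 TPM in CD8SP libraries (log2FC 0.70, adjusted p = 0.0407 by limma), under 2-fold. Median-of-ratios rescaling gave 0.40 for Il12rb1 (adjusted p = 0.232 by limma) and quantile normalization 0.38 (adjusted p = 0.264), and without CD4SP replicate 2 it was 0.58 (adjusted p = 0.0582). Il12rb2, its IL-12-specific partner, was under 3 TPM in every library and overlapped (log2FC -0.16, adjusted p = 0.784 by limma, and 0.25 with an adjusted p of 0.481 without CD4SP replicate 2).

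**Figure D4:**
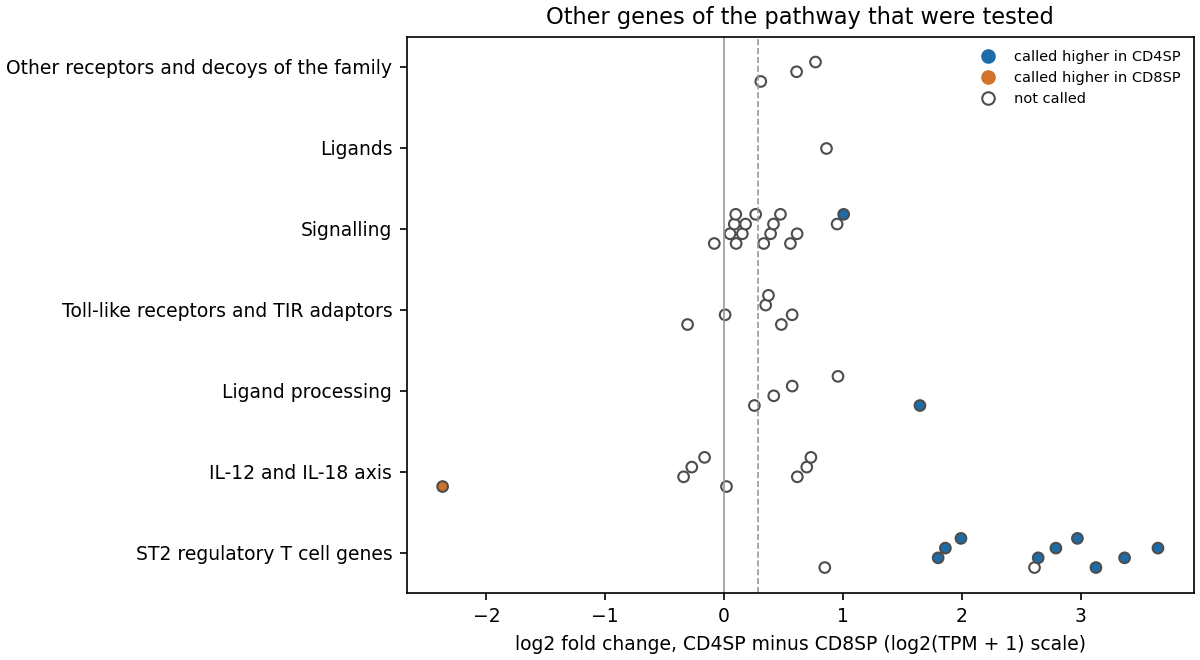
Log2FC on log2(TPM + 1), CD4SP against CD8SP, of every tested gene of 7 gene lists around the receptors, filled where called, with the median of all genes (0.284) dashed. Calls are single genes in the signalling, ligand processing and IL-12 and IL-18 lists, none among the other receptors, ligands and Toll-like receptors, and 9 of 11 in the list of genes of ST2-positive regulatory T cells.

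Genes known from ST2-positive regulatory T cells were set beside Il1rl1. Of 11 such genes 9 were called as higher in CD4SP, beside 7.92% of all tested genes, and the median log2FC was 2.64, beside 0.28 over all genes. Areg and Pparg were listed at 0 in all CD8SP libraries and passed the filter on low values only through the CD4SP libraries. Without any 1 CD4SP library they were untested and 9 genes remained, so these medians cover another set of genes. The median was 1.945 without CD4SP replicate 1 (7 of 9 called) and 1.911 without CD4SP replicate 3 (7 of 9). It was 2.691 without CD4SP replicate 2 (8 of 9). The list was chosen with the contrast between these populations known, so its direction is no independent evidence. Gata3, which drives ST2 expression in type 2 helper cells, was at 61.6, 72.7 and 67.04 TPM in CD4SP and at 20.71, 19.44 and 13.73 TPM in CD8SP libraries (log2FC 1.86, adjusted p = 0.000384 by limma). Areg, the growth factor amphiregulin, was at 9.46, 17.29 and 9.38 TPM in CD4SP and listed at 0 in all CD8SP libraries. Il2ra, the IL-2 receptor alpha chain, had a log2FC of 3.37 (adjusted p = 1.28e-05 by limma) and Ctla4, an inhibitory receptor, 2.64 (adjusted p = 6.38e-06 by limma). Il10, an inhibitory cytokine, was at 24.66 to 54.07 TPM in CD4SP and 1.74 to 11.2 TPM in CD8SP libraries (log2FC 3.13, adjusted p = 0.00608 by limma). Klrg1 (1.80), Ikzf2 (2.79) and Rora (1.99) were also called. Pparg, a nuclear receptor gene, was called too, at 13.17, 1.69 and 11.69 TPM in CD4SP and listed at 0 in all CD8SP libraries, so no fold is given for it or for Areg. Batf (0.85, adjusted p = 0.00325 by limma) was under 2-fold, and Foxp3 (2.61, adjusted p = 0.1 by limma) did not pass. Without CD4SP replicate 2, Foxp3 was called as higher in CD4SP (4.06, adjusted p = 8.67e-05 by limma), and it was also called with library weights (3.65, adjusted p = 0.00153).

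CD4SP replicate 2 was compared with the other CD4SP libraries over these genes. It was below both others in 3 of 7 members (Il1r2, Il18rap and Myd88) and in 6 of 11 genes of the list, beside 57.8% of all genes. On the log2(TPM + 1) scale it was lower than the mean of the others by a difference of -1.09 in Il1r2, -1.08 in Il18rap, -4.36 in Foxp3, -2.32 in Pparg and -1.09 in Il10, where the median of all genes was -0.23. Il1rl1 (-0.11), Il18r1 (0.07), Gata3 (0.18) and Il2ra (0.05) were near the other libraries, and Areg was higher (0.81). The receptor genes that differed most between the populations thus parted in this library, Il1r2 being lower and Il1rl1 near the others.

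**Figure D5:**
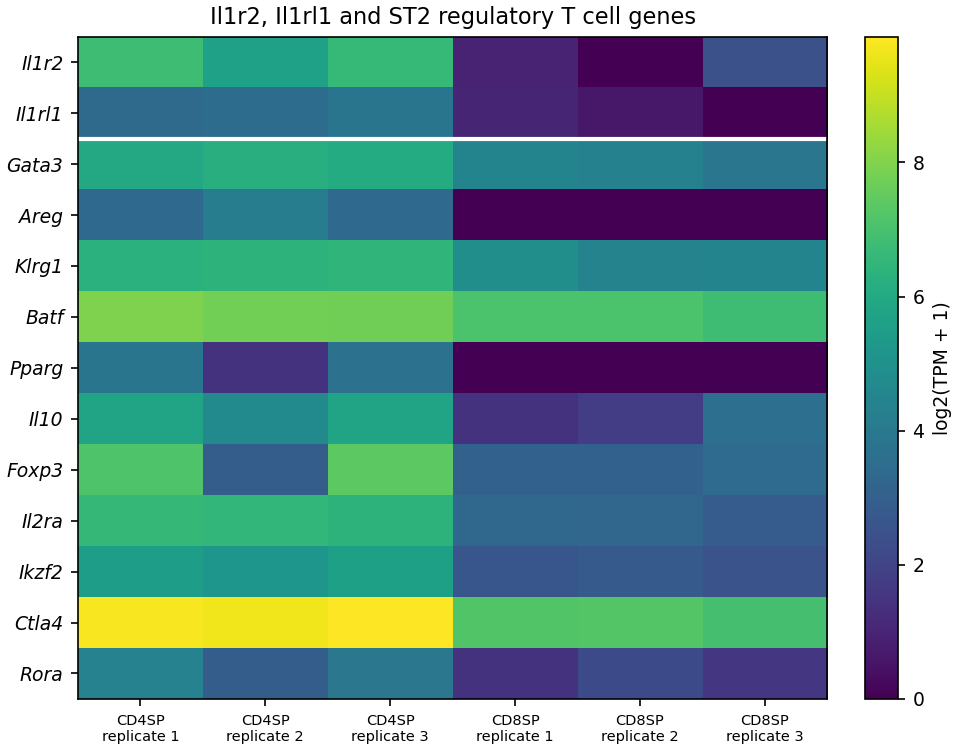
Heat map of log2(TPM + 1) in the 6 libraries for the receptor genes Il1rl1 and Il1r2 and the 11 genes of ST2-positive regulatory T cells, with libraries as columns and genes as rows. Foxp3 and Pparg are low in CD4SP replicate 2 beside the other CD4SP libraries, while Il1rl1, Gata3 and Il2ra are at like levels in all 3.

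Cells other than conventional T cells express ST2 and IL1R2, so their markers were measured. Of 6 mast cell and basophil markers 5 (Fcer1a, Cpa3, Ms4a2, Mcpt8 and Prss34) were listed at 0 in all libraries, and Kit was at 0.626 to 1.09 TPM in CD4SP and 0.144 to 0.206 TPM in CD8SP libraries. Of 9 myeloid markers in the table, the neutrophil genes Csf3r, S100a8 and S100a9 had no TPM above 0 in any library, and the summed level was 18.9 to 35.9 TPM in CD4SP and 23.8 to 27.5 TPM in CD8SP libraries. Lyz2 was higher in CD4SP, as Il1r2 was (17.07 to 30.85 and 3.64 to 8.33 TPM, log2FC 1.68, adjusted p = 0.00872 by limma), while Cd68 was higher in CD8SP (log2FC -2.41, adjusted p = 0.0127 by limma). The summed 7 regulatory T cell markers were at 1730 to 2071 TPM in CD4SP and 298.9 to 346.2 TPM in CD8SP libraries, and 6 of the 7 were called, beside 7.92% of all tested genes. Of these markers Foxp3, Il2ra, Ctla4 and Ikzf2 are also in the list of ST2-positive regulatory T cell genes, so the counts are not separate. Among 5 NK cell markers, Ncr1 was listed at 0 in all libraries and the sum was 104.5 to 110.5 TPM in CD4SP and 505.1 to 586.9 TPM in CD8SP libraries, where Il18rap was not called. Of the innate-like T cell markers in the table, Zbtb16 and Sox13 were listed at 0 in all libraries. Stromal and endothelial markers summed to 2.59 to 6.68 TPM in CD4SP and 1.51 to 3.21 TPM in CD8SP libraries. The T cell markers in the table, 5 of 8, summed to 4484 to 4661 and 3773 to 4250 TPM. Cells with CD11b were gated out of both populations. The CD11b gene Itgam was at 0.894 TPM in CD4SP replicate 3 and listed at 0 elsewhere. Csf1r and Cd14 were under 1 TPM in every library. The part of Lyz2-expressing or regulatory T cells in the levels of Il1r2 and Il1rl1 was not tested.

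The genes whose profiles lay nearest to each member were found by the root-mean-square (rms) distance of centred log2(TPM + 1) over the 6 libraries, among all tested genes. Nearest to Il1rl1 were Vax2 (rms distance 0.173), Il9r (0.269) and Gm4956 (0.271). Il9r, the receptor for interleukin-9, was at 7.78 to 9.95 TPM in CD4SP and at 0 to 0.475 TPM in CD8SP libraries. Nearest to Il1r2 were Penk (0.582), which encodes an enkephalin precursor, Cd81 (0.8) and Tff1 (0.821). Penk was at 133.1 to 216 TPM in CD4SP and 2.69 to 4.59 TPM in CD8SP libraries. Distances grow with the spread of a member's values, which was largest for Il1r2, so they are not compared between members. Nearest to Il1r1 were Usp35 (0.101), Lsr (0.108) and Med31 (0.114). Il18r1 was nearest to Egln1 (0.0441), Gnl1 (0.0508) and Cst3 (0.0509), and Il18rap to Trim65 (0.0863), Ager (0.0976) and Zfp239 (0.101). Myd88 was nearest to Tmem175 (0.0299), Tm9sf3 (0.0344) and Ankib1 (0.0371), and Irak4 to Eaf1 (0.0465), Mfng (0.048) and Cdc7 (0.0606).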

How the data were processed

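RNA from 1000 sorted cells per library was amplified with a whole-transcriptome kit, tagmented and sequenced on a NextSeq instrument. The submitters' processing notes name bcl2fastq, HISAT2, SAMtools, StringTie and mm10, and the authors deposited TPM (transcripts scaled for gene length and library total) per gene with 1 column per library. Whether duplicates were removed, strand was used or multi-mapping reads were shared was not given in the sources used here. Groups came from the sample titles. Values were analysed as log2(TPM + 1), which understates the change of low genes, for genes at 1 TPM or more in at least 3 of 6 libraries. Of 23420 rows, 9818 were 0 in all libraries and 10476 were tested with limma 3.58.1 in R 4.3.3 (eBayes with trend, population as the only term, two-sided, Benjamini-Hochberg adjustment). The fit was checked on simulated normal values, with changes placed only in genes above a set mean level. Recovery of changes in low genes was therefore not checked. Positive values mean higher in CD4SP. Single values were tested by exact permutation over 20 splits. TPM give no depth, so no counting interval was computed. Each member's longest transcript was compared with all annotated transcripts by blastn 2.17.0 (95% identity over 200 nt), and promoter windows came from RefSeq.

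The members and gene lists were chosen with earlier results of these data known. Genes named are the members, called genes of the lists, genes set as background for a receptor and the 3 nearest profiles of each member. Other genes named were picked after their values were seen. A single lineage marker and the list that holds it are not reported here.

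Other settings tried concerned the scaling (median-of-ratios, quantile, ribosomal protein genes removed), the pseudocount (0.1), the filter (none, or 5 TPM), the model (no trend, library weights, the replicate block, CD8SP replicates 1 and 2 averaged), the fold limit (none) and the omission of each library.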

Additional observations from a re-analysis of the deposited data

How the results depend on the processing

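Il1r2 and Il1rl1 were the members called under each alternative run, and with no fold threshold Il18r1 joined them. No member changed sign. Over 16 alternatives the log2 fold change ranged from 4.65 to 6.69 for Il1r2 and 2.74 to 4.74 for Il1rl1, highest with a pseudocount of 0.1. It ranged from 0.308 to 0.686 for Il18r1, -0.741 to -0.0382 for Il18rap, 0.0845 to 0.573 for Myd88 and 0.186 to 0.623 for Irak4. For Il1r1 it ranged from 0.649 to 1.66 over 15 alternatives, since a filter of 5 TPM left it untested. Genes called numbered 1019 (81.5% higher in CD4SP). With no fold threshold 2183 were called, by the construction of that alternative. Median-of-ratios rescaling gave 788 (62.1% higher in CD4SP), quantile normalization 777 (57.1%) and removing ribosomal protein genes 936 (72.6%). The first of these moved the median log2 fold change of all genes from 0.284 to 0.00128. Leaving out each library gave 752 to 1042 calls, and a difference of 0.626 to 1.34 in the Il18r1 to Il18rap balance.

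With the replicate block 997 genes and the same 2 members were called, and the adjusted p of Il18r1 was 0.0369. Deviations of same-numbered libraries from their population means correlated at -0.0168 to 0.0887 (mean 0.0411), so no pairing was detected, and the labels do not say whether such libraries share a mouse. Of the list genes named, Foxp3 was called with the block (adjusted p = 0.0438) and Irak2 was not (adjusted p = 0.0704). CD8SP replicates 1 and 2 were nearer to each other than to replicate 3 in the ribosomal share (32.5%, 32.1% and 35.9%). The labels do not say whether replicates 1 and 2 are independent samples. With these 2 libraries averaged, 809 genes were called, among them Il1r2 and Il1rl1, and Il18r1 had a limma adjusted p of 0.0479.

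With 3 libraries a population and no depth, counting error could not be computed, and an exact 0 is not evidence of absence.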
